A study of Mus musculus with 6 samples.

Results

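Colony-stimulating factors are the cytokines that keep myeloid cells alive and make them divide and mature. Colony-stimulating factor 1 (CSF1) and interleukin 34 (IL-34) share the receptor CSF1R, on which microglia depend for survival. In the healthy brain IL-34 comes mainly from neurons and CSF1 mainly from glia. Granulocyte-macrophage colony-stimulating factor (GM-CSF, gene Csf2) signals through a specific alpha chain (Csf2ra) paired with a beta chain (Csf2rb) that interleukin 3 and interleukin 5 also use. Granulocyte colony-stimulating factor (G-CSF, gene Csf3) binds its own receptor (Csf3r) and drives the production and release of neutrophils. The genes examined were these 4 ligands (Csf1, Il34, Csf2, Csf3) and 3 receptor chains (Csf2ra, Csf2rb, Csf3r). They were found by gene name in the deposited count table, and 6 of the 7 were found among 41386 genes. No row carried the name Csf2rb, and assembled loci with Csf2rb text are described in its place.

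Ribonucleic acid was sequenced from the hippocampus of male C57BL/6 mice 56 days old. In the ischemia/reperfusion group (I/R), a filament blocked the left middle cerebral artery for 1.5 h and blood then flowed again for 24 h. The sham group had the same operation without the filament. Each group had 3 libraries, and each library was made from several pooled ipsilateral hippocampi, which makes the error between libraries one between pools and not between mice.

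Total counts ranged from 37493042 to 44788547 per library. Markers of hippocampal neurons were present in every library, with a summed level of 223 to 449 CPM (counts scaled to library size and by edgeR's trimmed mean of M-values) in I/R and 669 to 674 after sham surgery. I/R replicate 1 stood apart from the other I/R libraries, with 1390 CPM of 5 neuron markers against 2590 and 2820, and with 266 CPM of monocyte and macrophage markers against 123 and 122. Ttr, a choroid plexus gene, had 810 counts in I/R replicate 3 and 385 after sham surgery replicate 1, against 68521 to 140679 elsewhere. Member values are therefore also given without I/R replicate 1, and without the 2 libraries low in Ttr where that ended a call.

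Across the table, 18569 genes passed the filter on low counts, and 7756 of them (41.8%) were differentially expressed genes (DEGs), which took a fold change above 1.2 and an adjusted p below 0.05. Of all tested genes, 21.8% were DEGs higher in I/R and 19.9% were DEGs lower in I/R, and in 57.4% the I/R and sham libraries did not overlap in CPM. Of the 7 members, 5 could be tested. Csf1, Csf3 and Csf2ra were DEGs higher in I/R, Il34 was a DEG lower in I/R, and Csf3r was not called. The I/R and sham libraries did not overlap for these 4 DEGs. These counts are to be read against the large shares of the whole table given above.

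**Figure D1:**
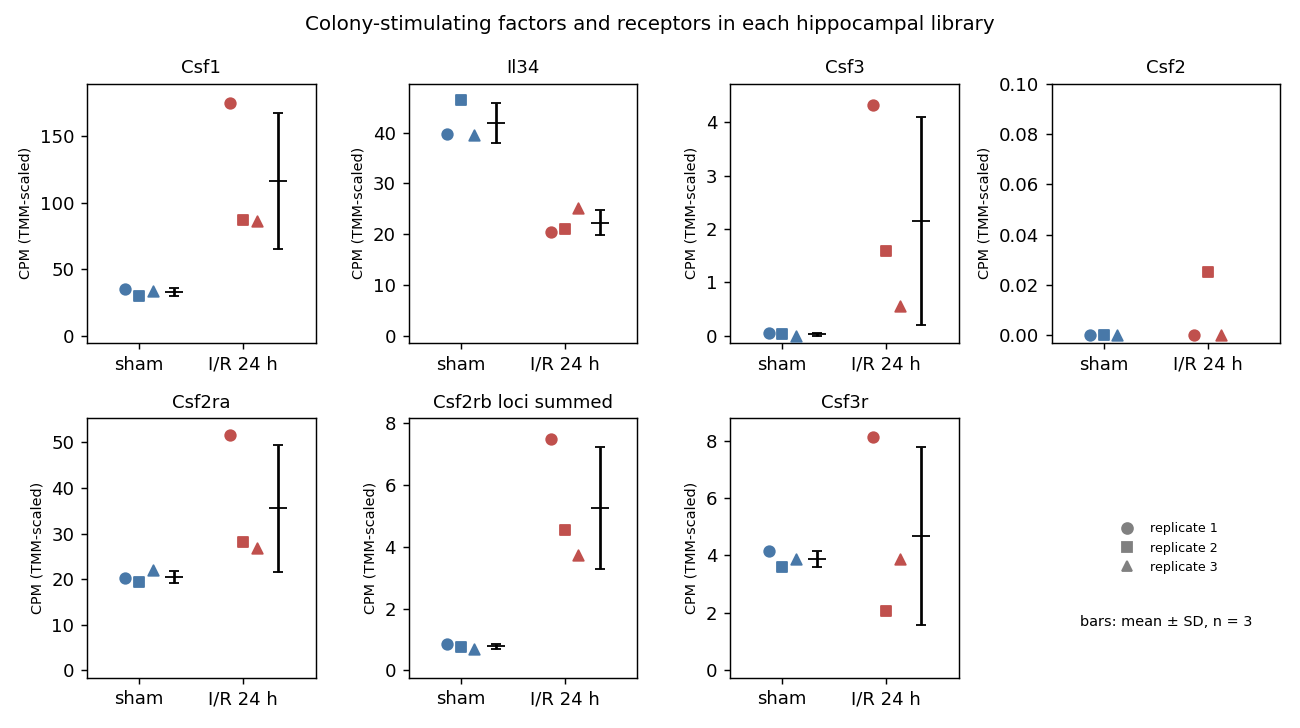
Level of each colony-stimulating factor and receptor in each library, in CPM on linear axes (each panel has its own scale), with 3 sham libraries in blue and 3 I/R libraries in red; black bars are mean ± SD of 3 libraries and are left out for Csf2. Csf1, Csf3, Csf2ra and the summed Csf2rb loci are above every sham library in all I/R libraries, Il34 is below, Csf3r overlaps, and Csf2 has a single count in a single library.

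The promoters of Csf1 and Csf2ra are printed because these genes were DEGs and had an entry among 300-base RefSeq promoters (250 bases before and 50 after the start site). Capitals mark matches, on either strand, to motifs searched as letters: GGGANNNNCC (the kind of site NF-κB binds), TGANTCA (AP-1), TGACGTCA (the cyclic AMP response element, CRE), GAGGAAG (PU.1, the myeloid transcription factor encoded by Spi1) and TTCNNNGAA (STAT proteins). Both are on build GRCm38.p6 and on the minus strand, Csf1 at chr3:107760420-107760719 and Csf2ra at chr19:61228369-61228668.
Csf1: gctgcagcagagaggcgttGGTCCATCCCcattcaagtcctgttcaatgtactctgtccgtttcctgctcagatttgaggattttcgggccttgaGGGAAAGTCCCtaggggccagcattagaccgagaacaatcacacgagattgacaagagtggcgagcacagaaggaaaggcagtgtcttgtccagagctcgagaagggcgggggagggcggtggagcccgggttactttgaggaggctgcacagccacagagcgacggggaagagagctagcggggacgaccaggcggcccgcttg
Csf2ra: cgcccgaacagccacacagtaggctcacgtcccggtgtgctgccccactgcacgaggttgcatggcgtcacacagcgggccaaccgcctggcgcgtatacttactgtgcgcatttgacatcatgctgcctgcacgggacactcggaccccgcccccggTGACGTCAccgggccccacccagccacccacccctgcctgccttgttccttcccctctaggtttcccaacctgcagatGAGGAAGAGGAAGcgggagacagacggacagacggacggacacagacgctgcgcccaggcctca

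The Csf1 window held 3 matches to the NF-κB letters, of which 2 lie on opposite strands of the same 11 bases, GGGAAAGTCCC. The Csf2ra window held none of these, but 1 CRE and 2 PU.1 matches that overlap by 1 base. Of 32851 promoters of this length, 20.7% held the NF-κB letters, 1.79% the CRE letters, 13.6% the PU.1 letters, 7.81% the AP-1 letters and 8.3% the STAT letters. The Csf2 window held 1 match to the NF-κB letters, and the Csf3r window held 1 of these and 1 to the PU.1 letters. No window of the 4 held the AP-1 or STAT letters. A match is a run of letters and not a measured binding site.

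Messenger RNAs of inflammatory cytokines often carry AU-rich elements, runs of ATTTA after the stop codon to which decay proteins such as tristetraprolin (gene Zfp36) bind. The densest 30 bases after the stop codon are shown for the 4 ligands, from the longest complete coding transcript of each in GENCODE M21 (GRCm38), with ATTTA in capitals.
Csf2: tttaaatATTTATTTATTTATTTATTTAtt
Csf3: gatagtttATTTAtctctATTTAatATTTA
Csf1: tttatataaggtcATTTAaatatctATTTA
Il34: tggttcctttttctattaaatggccATTTA

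Csf2 had 9 ATTTA in 317 bases and Csf3 had 6 in 669 bases, which is 28.4 and 8.97 per kilobase. Csf1 had 4 in 2111 bases and Il34 had 1 in 605 bases. Among genes with a 3′ end within 25% of the same length, 0% of 2118 had as many as Csf2, 1.62% of 2786 as many as Csf3, 48.2% of 3394 as many as Csf1 and 57.3% of 2633 as many as Il34. The longer motif TTATTTATT was present in 7.63% of 20707 genes. Csf2 had 4 such matches and the other members had none. The 3 receptor chains had 0 ATTTA.

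The first comparison asked how the ligands of CSF1R stood 24 h after reperfusion. Csf1 rose and Il34 fell in the I/R hippocampus, while their receptor Csf1r was not called. Csf1 (chr3:105480821-105500256, minus strand, on the BALB/cJ assembly used by the authors' table) had 7983, 3489 and 3454 counts for I/R replicates 1, 2 and 3 against 1373, 1213 and 1150 after sham surgery. Each I/R library held more than any sham library, and I/R replicate 1 held the most. The level was 116 ± 51.1 CPM after I/R and 32.8 ± 2.71 CPM after sham surgery (SD, n = 3 each). The log2 fold change was 1.83 ± 0.27 (SE), a 3.55-fold rise (edgeR quasi-likelihood test, adjusted p = 0.00188), larger than that of 94.7% of tested genes. Without I/R replicate 1 the rise was 2.64-fold, and the gene stayed a DEG.

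Il34 (chr8:109021576-109088722, minus strand) had 934, 842 and 1005 counts after I/R and 1551, 1885 and 1363 after sham surgery. Every I/R library was below every sham library. I/R replicate 1, the highest for Csf1, did not stand apart here, with 20.5 CPM against 21.1 and 25.1. By raw counts I/R replicate 2 was the lowest. The level was 22.2 ± 2.52 CPM after I/R and 41.9 ± 3.87 CPM after sham surgery, a 1.88-fold fall (log2 fold change -0.91 ± 0.12, SE, edgeR adjusted p = 0.00117). Leaving out I/R replicate 1 gave -0.86. Il34 lies over the plus-strand genes Gm15894 and Gm15895, which had 6 to 22 and 0 to 4 counts per library. Whether counting used the strand is not stated, so reads from these genes cannot be told apart. The 5 neuron markers summed to 1390 to 2820 CPM after I/R and 5030 to 5270 CPM after sham surgery. All 5 were DEGs lower in I/R, as were 19.9% of all tested genes. The part of neurons in the fall of Il34 was not tested. In a bulk sample, fewer cells of a type and less RNA per cell cannot be told apart.

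Within a library the ratio of 2 genes does not depend on how libraries are scaled. There were 8.54, 4.14 and 3.44 Csf1 counts per Il34 count in I/R replicates 1, 2 and 3, and 0.885, 0.644 and 0.844 after sham surgery. The ratio was 6.32-fold higher in I/R (2.66 on the log2 scale), with no overlap. The exact two-sided permutation test gave p = 0.1, the smallest that 3 libraries against 3 can give, and 0.1 after Benjamini-Hochberg adjustment over 4 ratios.

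Csf1r is not one of the members, but both ligands act through it. It had 5104, 3265 and 3435 counts after I/R and 2805, 3466 and 2778 after sham surgery, and the groups overlapped. Its log2 fold change was 0.23 ± 0.13 (SE) and it was not called (edgeR adjusted p = 0.198). Scaled by library size alone it was a DEG (log2 fold change 0.50, adjusted p = 0.0304). It was also called in FPKM. The range of adjusted p over its alternatives was 0.0304 to 0.467. That scaling moved the median over the tested genes from 0.03 to 0.28 on the log2 scale.

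**Figure D2:**
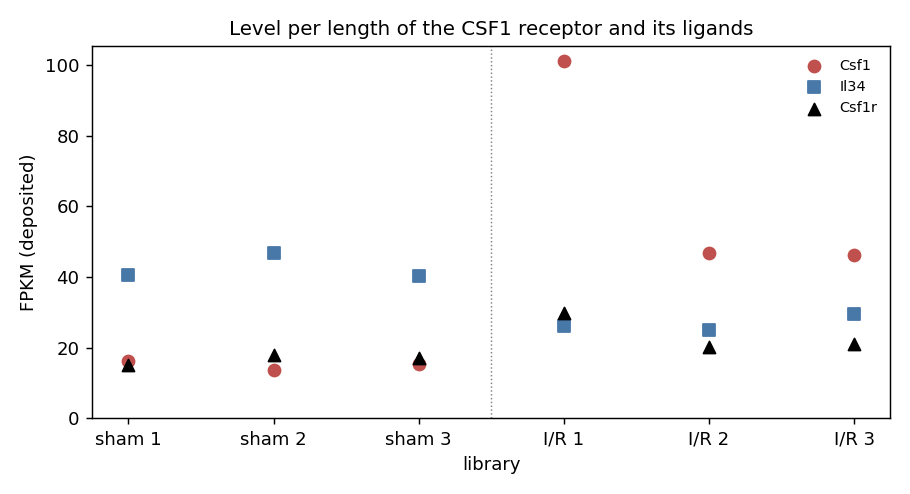
Level per gene length of Csf1 (red circles), Il34 (blue squares) and Csf1r (black triangles) in each library, as deposited FPKM on a linear axis. Il34 is above Csf1 in the 3 sham libraries and Csf1 is above Il34 in the 3 I/R libraries, while Csf1r spans 15.2 to 29.8 FPKM over all 6.

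Levels of different genes are compared here as FPKM, the deposited counts per kilobase of gene, scaled to library size. In sham the order was Il34 at 42.5 ± 3.61, Csf1r at 16.7 ± 1.34, Csf1 at 15.1 ± 1.35, Csf2ra at 10.3 ± 0.699, Csf3r at 1.73 ± 0.136, Csf3 at 0.0164 and Csf2 at 0 FPKM. In I/R it was Csf1 at 64.8 ± 31.8, Il34 at 26.9 ± 2.42, Csf1r at 23.6 ± 5.34, Csf2ra at 21.5 ± 9.48, Csf3r at 2.54 ± 1.8, Csf3 at 1.71 ± 1.62 and Csf2 at 0.0111 FPKM. Neighbours whose libraries overlapped were Csf1r and Csf1 and also Csf3 and Csf2 after sham surgery. In I/R they were Il34 and Csf1r, Csf1r and Csf2ra, and Csf3r and Csf3. Csf1 thus moved from the level of its receptor to the top of the list.

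The second comparison asked about G-CSF and its receptor. Csf3 was nearly undetected in sham and detected in every I/R library, with a wide spread between the I/R pools, and Csf3r was not called. Csf3 (chr11:97551805-97555095, plus strand) had 197, 63 and 22 counts after I/R and 2, 1 and 0 after sham surgery. All sham libraries were at or under the floor of 3 counts, which corresponds to 0.0793 CPM on average. The mean I/R level of 2.15 ± 1.95 CPM was therefore at least 27.1-fold higher than sham, and at least 13.4-fold higher without I/R replicate 1. Csf3 was a DEG (edgeR adjusted p = 0.00318). It passed the filter on low counts only through its I/R libraries, so it could only be called higher. Only 1 setting left it untested, the filter that asked for 10 counts in every library.

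Csf3r (chr4:123226697-123247043, plus strand) had 369, 83 and 155 counts after I/R and 162, 146 and 134 after sham surgery. I/R replicate 1 was above every sham library and I/R replicate 2 below every sham library. The level was 4.69 ± 3.1 CPM after I/R and 3.88 ± 0.279 CPM after sham surgery, and the log2 fold change of 0.28 ± 0.43 (SE) was not called (edgeR adjusted p = 0.639). Without I/R replicate 1 it was -0.38 (adjusted p = 0.269), so 1 library set its direction. Over the alternatives the adjusted p ranged from 0.186 to 0.895. Of its 50-base stretches in GENCODE M21 transcripts, 10.5% also occur in transcripts of other genes, against 0% for Csf1, Csf2, Csf3, Il34 and Csf2ra. Reads on those stretches could not be assigned to Csf3r alone.

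Neutrophils carry the G-CSF receptor, and their markers were summed in each library. The 12 neutrophil markers summed to 36.1, 11.3 and 8.85 CPM for I/R replicates 1, 2 and 3 against 2.15 to 3.2 CPM after sham surgery. Csf3 had the same order over the I/R libraries. So had the sums of monocyte and macrophage markers (266, 123 and 122 CPM) and of endothelial markers (532, 393 and 318 CPM). Of the 12 neutrophil markers, 6 were tested, 4 were DEGs higher in I/R and none was a DEG lower in I/R. Over all tested genes these shares were 21.8% and 19.9%. S100a8, S100a9, Retnlg, Mmp8 and Mpo would not have passed the filter on low counts by their sham libraries alone. They therefore had little room to be called lower. Without sham replicate 2 only 1 of the 12 markers was called. Their highest fold changes were those of S100a8 (log2 fold change 4.66), S100a9 (3.78), Retnlg (3.78) and Mmp8 (3.02). Without I/R replicate 1 the first 3 of these were at 3.53, 2.61 and 2.76, and without sham replicate 1 all 4 were between 4.43 and 5.44. Mmp8 was at 2.43 without sham replicate 2. Of the granule genes, Ngp, Ltf, Camp and Elane had at most 5 counts in any library, whereas Mpo had 21, 31 and 15 counts after I/R and 6, 12 and 7 after sham surgery (log2 fold change 1.29, not called, edgeR adjusted p = 0.072). Ly6g had 1 count in all. Cxcr2, the chemokine receptor of mature neutrophils, had 87, 10 and 9 counts after I/R and 0 in each sham library. The part of these cells in the levels of Csf3 and Csf3r was not tested.

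The number of Csf3 counts per Csf3r count was 0.535, 0.76 and 0.145 in the I/R libraries and 0.0154 or less in sham, with 0.5 added to each count. The ratio did not overlap between groups (exact permutation p = 0.1, two-sided, the smallest possible).

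The third comparison asked about GM-CSF and its receptor. The ligand was not detectable at this depth. The alpha chain Csf2ra was higher in I/R, and so were 2 loci annotated as Csf2rb whose gene was not settled. The Csf2ra call was lost without each of the sham libraries in turn, although its log2 fold change hardly moved (0.74 to 0.83, against 0.79). Its size depended more on I/R replicate 1, without which it was 0.42. Csf2 (chr11:52051320-52053716, minus strand) had 1 count in I/R replicate 2 and 0 in the other 5 libraries. A floor of 3 counts allows up to 0.0659 to 0.0872 CPM in a library, for counting error only. Csf2 overlaps the plus-strand gene Gm12223, which had 1 count in each of I/R replicates 1 and 2. Il3, whose product uses the same beta chain, had 0 counts in all libraries. Il5 had at most 9. The ratio of Csf2 to Csf3 was computed as well, but since both genes were at the floor in sham its fold is not given.

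Csf2ra (chr19:58954914-58959174, minus strand) had 2344, 1128 and 1073 counts after I/R and 793, 784 and 752 after sham surgery. Every I/R library was above every sham library, with I/R replicate 1 far above the others. The level was 35.5 ± 13.9 CPM after I/R and 20.5 ± 1.29 CPM after sham surgery, a 1.73-fold rise (log2 fold change 0.79 ± 0.24, SE, edgeR adjusted p = 0.0304). The call was lost without sham replicate 1 (adjusted p = 0.0887), without sham replicate 2 (0.109), without sham replicate 3 (0.0733), without both libraries low in Ttr (0.0526) and with no filter on low counts (0.0592). Over all alternatives the adjusted p ranged from 0.00258 to 0.109. Without I/R replicate 1 it was kept, at 1.34-fold.

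In place of a row for the beta chain, 2 loci that the authors assembled had Csf2rb in their pathway annotation. The first lies on the unplaced scaffold LVXK01035137.1 at 124-3411, plus strand. It had 289, 155 and 135 counts after I/R and 27, 27 and 23 after sham surgery, a 6.7-fold rise (log2 fold change 2.74 ± 0.31, SE, edgeR adjusted p = 0.000745), or 5.34-fold without I/R replicate 1. Every I/R library was above every sham library. The second lies at chr15:75746163-75749088, minus strand, with 53, 27 and 14 counts after I/R and 7, 4 and 1 after sham surgery. It rose 6.87-fold (adjusted p = 0.0148), or 4.8-fold without I/R replicate 1 and 10.6-fold without sham replicate 1, but was not called without sham replicate 2 (adjusted p = 0.0632) or without sham replicate 3 (0.052). In sum the 2 loci had 5.26 ± 1.99 CPM after I/R and 0.777 ± 0.0875 CPM after sham surgery, a 6.75-fold difference (adjusted p = 0.000847).

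The mouse has a second beta chain gene, Csf2rb2, which serves interleukin 3 only, and 12.3% of the 50-base stretches of Csf2rb transcripts also occur in Csf2rb2. Which of the 2 genes each locus belongs to was not settled, and the loci are called by their annotation text. Another assembled locus at chr15:75813441-75817628, plus strand, carried no such text and lies between Ncf4 and Tex33. It had 64, 30 and 15 counts after I/R and 5, 11 and 1 after sham surgery (log2 fold change 2.51, edgeR adjusted p = 0.0283, a 5.7-fold rise, 3.79-fold without I/R replicate 1), and was not called without I/R replicate 1, I/R replicate 2, sham replicate 1 or sham replicate 3 (adjusted p 0.0531 to 0.0926).

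There were 6.85, 6.18 and 7.18 Csf2ra counts for each count of the 2 Csf2rb loci in I/R, and 23, 24.9 and 30.7 after sham surgery. The ratio fell by 1.95 on the log2 scale with no overlap between groups, and its I/R values had an SD of only 0.11 on that scale (exact permutation p = 0.1, two-sided, the smallest possible). In these libraries the difference was larger for the Csf2rb loci than for Csf2ra, and I/R replicate 1, although highest for both, had the middle ratio of the I/R libraries.

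**Figure D3:**
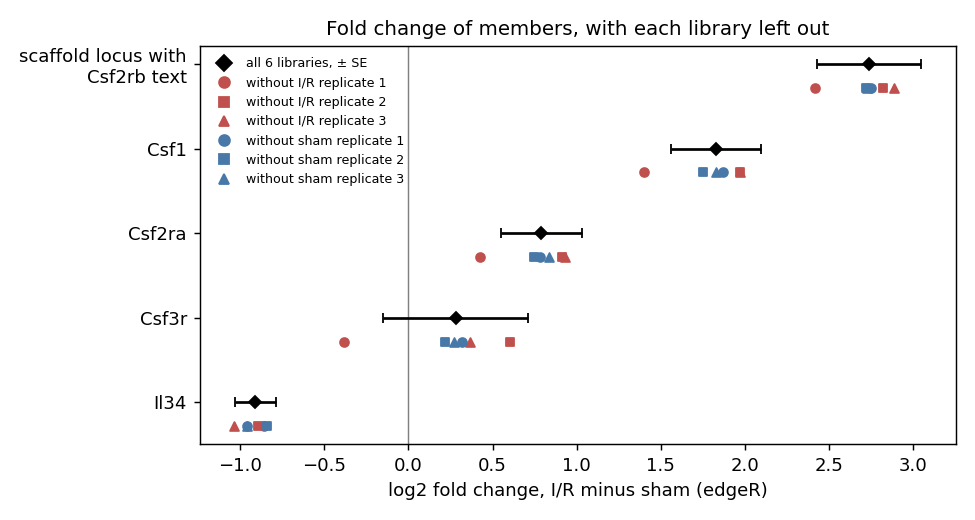
Log2 fold change of I/R minus sham from edgeR for the scaffold locus with Csf2rb text and 4 members (black diamonds ± SE, all 6 libraries), with the value after leaving out each library below it (red for I/R, blue for sham). Csf1, Csf2ra and the scaffold locus stay above 0 and Il34 stays below 0, while Csf3r turns to -0.38 without I/R replicate 1; Csf3 is left out because all its sham libraries are at the floor.

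Monocytes and macrophages carry CSF1R and the GM-CSF receptor. Of 10 monocyte and macrophage markers, 9 were named, 8 were tested and 7 were DEGs higher in I/R. Over all tested genes, 21.8% were DEGs higher in I/R and 19.9% were DEGs lower. Chil3, Ccr2 and Ms4a7 would not have passed the filter on low counts by their sham libraries alone. They therefore had little room to be called lower. The sum of the named markers was 266, 123 and 122 CPM after I/R and 17.4 to 20.3 CPM after sham surgery. Cd14, Chil3, Ccr2 and Lyz2 were among the DEGs. Cd14 alone held 111 ± 60.4 CPM of the I/R sum. Csf1, Csf2ra and the 2 Csf2rb loci had their highest level in the same library, I/R replicate 1. The 9 homeostatic microglia markers, in contrast, overlapped between groups in their sum, 195 to 269 CPM after I/R and 207 to 230 CPM after sham surgery. Of these, 3 were DEGs higher in I/R, Aif1 and Cx3cr1 among them, and 4 were DEGs lower (Siglech, P2ry12, Gpr34 and Tmem119). Without sham replicate 1 or without sham replicate 2, 4 of the 9 were called. The part of either cell type in the member values was not tested.

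**Figure D4:**
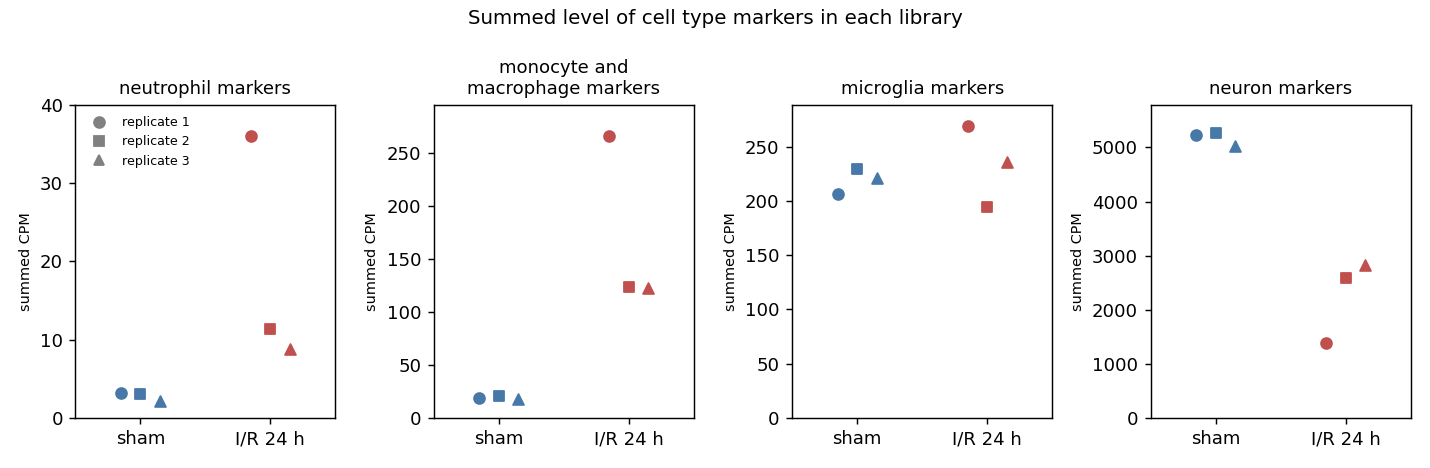
Summed CPM of neutrophil, monocyte and macrophage, homeostatic microglia and neuron markers in each library, on linear axes that start at 0 (sham in blue, I/R in red, marker shape for the replicate number). I/R replicate 1 has the highest neutrophil sum (36.1) and monocyte and macrophage sum (266) and the lowest neuron sum (1390), while the microglia sums of the groups overlap.

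Genes around these ligands and receptors were examined as lists. The counts below are to be read against all tested genes, of which 21.8% were DEGs higher in I/R and 19.9% lower. Among 14 related blood-cell cytokines and receptors, 12 were named and 7 were tested, of which 2 were DEGs higher in I/R and 3 lower. The median log2 fold change was -0.72, against 0.03 over all tested genes. Il3ra, the alpha chain of the interleukin 3 receptor, rose (log2 fold change 1.89 ± 0.35, SE, edgeR adjusted p = 0.00418), from 0.707 ± 0.199 to 2.63 ± 0.772 CPM. Kit, the receptor for stem cell factor and a near relative of Csf1r, fell from 120 ± 2.85 to 56.7 ± 6.07 CPM (log2 fold change -1.08), whereas its ligand Kitl rose from 30.8 ± 1.21 to 53.3 ± 7.58 CPM (0.79). Flt3, another relative of Csf1r, fell by 1.57 on the log2 scale and Epor, the erythropoietin receptor, by 1.63. Receptors for blood-cell cytokines thus moved in both directions in the same libraries.

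IL-34 also binds a phosphatase receptor (Ptprz1) and a proteoglycan (Sdc1). Sdc1 rose from 0.855 ± 0.219 to 8.08 ± 3.54 CPM (log2 fold change 3.23, edgeR adjusted p = 0.000831). Ptprz1, far more abundant, fell from 243 ± 15.3 to 181 ± 21.1 CPM (-0.43, adjusted p = 0.018). Only 1 of the 2 was called without sham replicate 1 or without sham replicate 3.

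Of 15 genes that carry the signal from these receptors, 13 were named and tested, with a median log2 fold change of 0.69. Of these, 9 were DEGs higher in I/R and none lower, against 21.8% and 19.9% of all tested genes. Stat3, the main transcription factor below the G-CSF receptor, rose from 64.9 ± 2.42 to 273 ± 66.6 CPM (log2 fold change 2.07, edgeR adjusted p = 0.000296). Tyrobp, which encodes the adaptor DAP12, rose by 2.09 on the log2 scale. Ptpn6, the phosphatase SHP-1 that restrains these receptors, rose by 1.82. The 4 genes not called were Jak1, Grb2, Ptpn11 and Stat5b, with log2 fold changes between -0.24 and 0.34.

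The 13 feedback and response genes included 12 that were named and tested (median log2 fold change 1.41). Of these, 10 were DEGs higher in I/R and none lower, against 21.8% and 19.9% of all tested genes. Socs3, the feedback inhibitor of the G-CSF receptor, rose from 2.98 ± 1.08 to 108 ± 40.7 CPM (log2 fold change 5.17, edgeR adjusted p = 0.000215). The transcription factors Runx1 and Spi1 rose by 3.43 and 2.08, and the kinase gene Pim1 by 2.82. Cish, the feedback gene most tied to STAT5, had a log2 fold change of 0.94 that was not called (adjusted p = 0.078), and Bcl2l1 one of 0.19 (adjusted p = 0.119). Many other cytokines act on these genes, interleukin 6 among them.

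Of 12 inducers of these factors and regulators of their mRNA decay, 11 were tested (median log2 fold change 1.52). Of these, 10 were DEGs higher in I/R and none lower, against 21.8% and 19.9% of all tested genes. Il6, Tnf, Il1b and Il1a would not have passed the filter on low counts by their sham libraries alone. They therefore had little room to be called lower, and they also enter the median. Il6 had 451, 239 and 224 counts after I/R and 1, 0 and 0 after sham surgery, a difference of at least 90.3-fold. For Tnf there were 128, 42 and 129 counts after I/R and 4, 1 and 0 after sham surgery. It rose by 5.66 on the log2 scale, or 7.17 without sham replicate 1. Il1b had 219, 39 and 66 counts after I/R and 3, 7 and 9 after sham surgery, and rose by 3.86, or 2.94 without I/R replicate 1. Unlike Csf3, Tnf was not highest in I/R replicate 1. Il17a had 0 counts in all libraries. Zfp36, whose product binds AU-rich elements, rose from 6.22 ± 1.74 to 44.9 ± 14.4 CPM (log2 fold change 2.86, edgeR adjusted p = 0.000537). Binding to the stretches printed above was not measured. Zc3h12a, an RNase that cuts cytokine messages, rose by 1.94. Elavl1, whose product HuR stabilises AU-rich messages, had a log2 fold change of 0.33 that was not called (adjusted p = 0.0566).

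**Figure D5:**
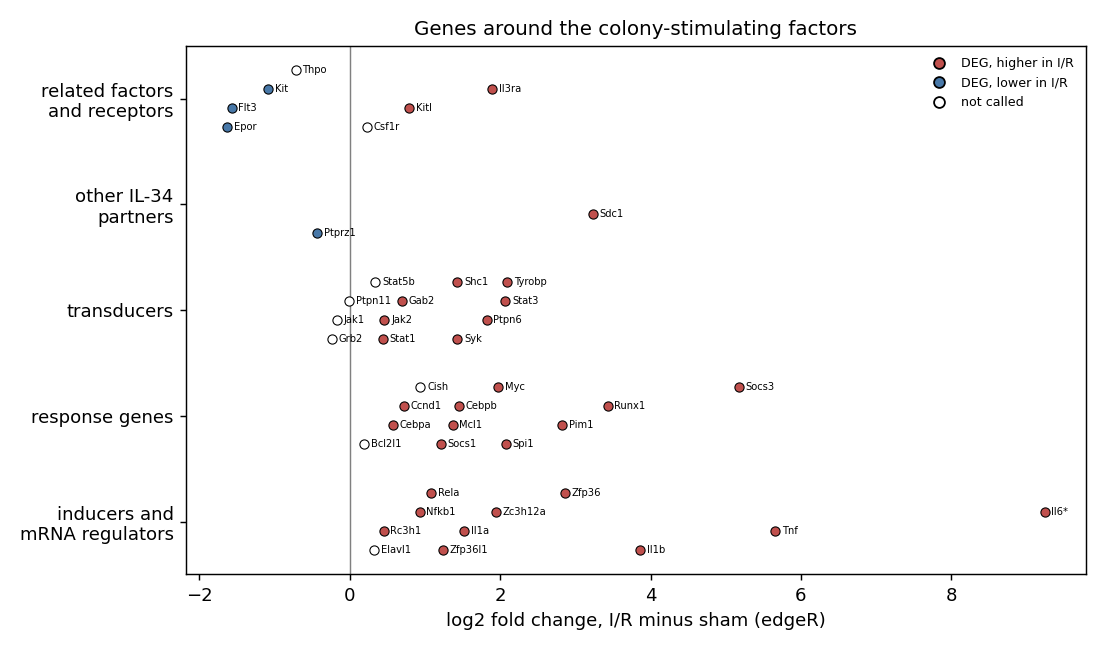
Log2 fold change of I/R minus sham from edgeR for tested genes of the 5 lists around the colony-stimulating factors, with DEGs filled in red (higher in I/R) or blue (lower) and genes not called drawn unfilled; the vertical position within a list only separates labels. All called transducers, response genes and inducers are to the right of 0, whereas the related receptors Kit, Flt3 and Epor are to the left; the asterisk marks Il6, whose sham libraries are all at the floor.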

How the data were processed

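The members and lists were chosen with earlier results of these data known. The authors aligned reads to an Ensembl genome with TopHat 2 and HTSeq then gave reads per gene; the submitters' processing notes also name Bowtie 0.12.2 and build mm8, without a role. The deposited table held raw counts and the authors' FPKM, with identifiers of the BALB/cJ strain, although the mice were C57BL/6. How reads that fit several places were treated is not stated. The 4 columns of group means and the authors' own p-values stayed out.

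The test on counts used edgeR 4.0.16 (filterByExpr, TMM, glmQLFit with robust estimation, glmQLFTest) over 18569 genes, I/R against sham, with no covariate and Benjamini-Hochberg adjustment. SE was the log2 fold change over the square root of F. The fit was tested on simulated data in which far fewer genes differed than were called here. That run therefore cannot show how the fit performs on these libraries. DESeq2 1.42.0 and limma 3.58.1 served as alternatives. Folds against a group with 3 counts or fewer in every library are lower bounds, and CPM with SD is over 3 libraries. Floors cover counting error only, whereas SE and SD include the variation between libraries. All members were named. In each other list, up to 4 DEGs with the largest fold changes were named, and further genes were chosen after their values were seen. A few listed genes count in the totals but are not reported here by name. For the ratio of Csf2ra to Csf2rb, the sum of the 2 loci stood in for Csf2rb, a choice made after seeing the data.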

Additional observations from a re-analysis of the deposited data

How the results depend on the processing

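Each value was recomputed with other scalings, filters, tests and units and with each library left out. Of these comparisons of the main results, 180 were classed as unchanged. For a fold change this meant the same direction and side of the threshold, and for a ratio the same direction. For a count of genes it meant a number close to the main one, so a fall from 4 to 3 members was classed as unchanged. Over all comparisons, with each list, the Csf2rb loci and the nearest patterns included, 524 were classed as unchanged. In 40 a count or a set of nearest genes moved, in 9 a call was lost and in 1 the direction turned. With a fold change over 2, 2 members and 2760 genes were called, and Il34 (-0.91) and Csf2ra (0.79) were no longer called, because the stricter fold excludes them. Csf2ra also lost its call with no filter on low counts (0.77) and, in an alternative chosen after seeing the data, without the 2 libraries low in Ttr (0.94). With each library left out, the log2 fold change was 0.42 to 0.93 for Csf2ra, -0.38 to 0.61 for Csf3r, 1.40 to 1.97 for Csf1 and -1.04 to -0.84 for Il34. Between 3 and 4 members, 31 and 37 genes of the 5 pathway lists (36 in the main comparison) and 5330 and 7976 genes in all were called. Where a call was lost, the cause was not tested. The ratio of Csf2 to Csf3 was not run in FPKM, since Csf2 was listed at 0 in most libraries.

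Same-numbered libraries of the 2 groups did not deviate together (r = -0.097, 0.056 and -0.184). With 3 libraries in each group, these correlations cannot settle whether the numbers pair them. With the replicate number as a block, 4 members and 6332 genes were called, and Csf1 (1.75), Il34 (-0.92) and Csf2ra (0.73) kept their calls. Low counts limit Csf2, Csf3 in sham and the smaller Csf2rb locus. Csf3, that locus and the unannotated locus would not have passed the filter on low counts by their sham libraries alone.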

Other observations

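Other cell types in the hippocampus moved in several directions. Over all tested genes, 21.8% were DEGs higher in I/R and 19.9% were DEGs lower. All 6 endothelial markers were DEGs higher in I/R, with Pecam1 at 105 ± 34.4 CPM against 27.6 ± 0.582 (log2 fold change 1.92). Their sum was highest in I/R replicate 1 (532 CPM, against 393 and 318 in the other I/R libraries and 192 to 194 in sham). Of 5 astrocyte markers, Gfap and Aqp4 were DEGs higher in I/R and Slc1a2 and Slc1a3 were DEGs lower, and without sham replicate 3 only 2 of the 5 were called. Of 5 oligodendrocyte markers, 2 were DEGs lower in I/R, Mal among them, and neither was called without sham replicate 1 or without sham replicate 3, while 1 was called without I/R replicate 2. All 5 neuron markers were DEGs lower in I/R, and 3 of them were called without sham replicate 2. Of 6 hippocampal neuron markers, 4 were DEGs lower in I/R, led by C1ql2 (-1.39). Of 4 striatal markers, Drd1 was a DEG higher in I/R (0.81), at 9.25 ± 0.736 against 5.27 ± 0.585 CPM. The other 3 were not called, with Drd2 at -0.21, Rgs9 at -0.01 and Gpr6 at -0.45.

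Lymphoid and mast cells left few reads. Of 8 T and NK cell markers, 7 were named and only Lck was tested (log2 fold change 1.21, a DEG, not called without I/R replicate 2, I/R replicate 3 or sham replicate 2). Cd3e, Cd3g, Cd8a and Gzmb had 3 counts or fewer in every library. No mast cell marker passed the filter, and the 4 markers summed to 0.125 to 0.475 CPM in I/R and 0.174 to 0.91 CPM in sham. None of the 5 choroid plexus markers was called over all libraries, and 1 was without sham replicate 1.

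The genes whose pattern over the 6 libraries was nearest to each member were found by the root mean square difference of centred log2 CPM. For Il34 these were Cspg5 (0.0179), Zfr2 (0.0319) and Tmem132d (0.0469), and 2 of the 3 were also among the nearest when log2(FPKM + 1) was used. For Csf1 they were Srxn1, Zbtb42 and Fes, at 0.0967 to 0.106. For Csf3 they were Fabp4, S100a8 and Cpa4, at 0.413 to 0.505, and for Csf2ra Hmha1, Inppl1 and Als2cl, at 0.0659 to 0.0724. None of the 3 nearest genes of Csf1, Csf3 or Csf2ra was kept with FPKM. For Csf3r they were D330050G23Rik, Smim5 and BC030499, at 0.15 to 0.179, and 1 was kept.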
